A study of Mus musculus with 9 samples.

Results

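The 10 genes described here belong to bone morphogenetic protein (BMP) signalling: the ligand genes Bmp3, Bmp4 and Bmp7, the target genes Id1, Id2, Id3 and Id4, and the feedback genes Smad6, Smad7 and Bambi. They were taken by symbol from a count table of 54232 mouse genes, and all 10 were found. The list was proposed with results of this series in view, because Bmp3 was low with both hairpins against Phf2, and the question was whether BMP targets were low with it. Levels, fitted values and calls against shNT are therefore given for these 10 genes as a description only, with no p-value. Tests of the 10 genes are given for contrasts that the choice did not use directly, namely between the hairpins and between the date labels. Other genes of the pathway were tested in all contrasts, but their lists too were drawn up with earlier results of these data known.

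RNA-seq was run on cultured primary neural stem cells of embryonic mice, with the subventricular zone of the brain as the labelled tissue. The sh900 and sh902 groups received a short hairpin RNA against Phf2, a histone demethylase gene of the KDM7 family, and the shNT group a non-targeting hairpin. All groups grew on dishes coated with laminin at 5 µg/mL, with fibroblast growth factor at 10 ng/mL and epidermal growth factor at 20 ng/mL, and RNA was taken 3 days after treatment. Each group held 3 libraries, labelled 3 September, 30 August or without a date. What a date marks is not stated. Nothing says that the libraries of a group came from different cultures or animals, and p-values therefore reflect library-to-library spread that may be technical. In bulk RNA, fewer cells of a type and less RNA per cell cannot be told apart.

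Library totals were 23212472 to 32392496 estimated counts. Levels are given as CPM, counts scaled to the effective library total of edgeR. Phf2 stood at 14.9 to 25.5 CPM with sh900 and at 17.0 to 28.1 CPM with sh902, against 48.6 to 56.3 CPM with shNT, so every hairpin library was below every control. Neural stem and progenitor markers of the labelled cell type were present, and all 9 passed the expression filter. Their sum was 5110 to 6418 CPM with sh900, 4442 to 4563 CPM with sh902 and 5219 to 5288 CPM with shNT. Single markers varied far more than this sum. Nes ran from 114 CPM in shNT of 3 September to 1968 CPM in sh902 of 30 August. Hes5 ran from 5.98 CPM in sh902 of 30 August to 467 CPM in shNT undated, while Sox2 ran only from 167 to 346 CPM. The libraries also differed in glial markers. The sum of 6 astrocyte markers was 662 to 3014 CPM with sh900, 737 to 2326 CPM with sh902 and 728 to 5728 CPM with shNT. In shNT of 3 September alone the astrocyte sum (5728 CPM) was above the neural stem and progenitor sum (5274 CPM).

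BMPs are secreted proteins of the TGF-beta superfamily. They bind receptor pairs that phosphorylate Smad1, Smad5 and Smad9, and these enter the nucleus with Smad4 and switch on target genes, among them the Id genes. Id proteins bind helix-loop-helix factors and keep them from DNA. In the brain BMPs favour astrocytes over neurons and oligodendrocytes, and in adult neural stem cells they are known to favour quiescence. Smad6, Smad7 and Bambi are switched on by the pathway and dampen it. Smad6 and Smad7 are inhibitory Smads, and Bambi is a receptor-like protein that lacks the kinase.

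Promoter windows from RefSeq on GRCm38.p6 were at hand for 5 of the 10 genes, Bmp4, Id2, Id3, Id4 and Smad6. Each window ran from 250 bases before the annotated start to 20 bases after it. BMP-activated Smads are known to bind GGCGCC, and Smads of the pathway bind GTCT, which reads AGAC on the other strand. The windows of Bmp4, Id4 and Smad6 are printed because Bmp4 and Id4 had the highest correlation over libraries of any ligand and target in the list, and because the Smad6 window holds the rarer double site. Capitals mark these motifs on either strand. They lie at chr14:46390650-46390919 (minus strand), chr13:48260866-48261135 (plus strand) and chr9:64022040-64022309 (minus strand).
Bmp4: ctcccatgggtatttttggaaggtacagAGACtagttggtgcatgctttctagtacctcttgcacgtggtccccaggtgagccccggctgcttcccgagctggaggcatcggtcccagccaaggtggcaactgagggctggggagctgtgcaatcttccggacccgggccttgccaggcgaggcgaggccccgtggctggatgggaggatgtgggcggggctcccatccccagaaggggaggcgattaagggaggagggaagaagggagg
Id4: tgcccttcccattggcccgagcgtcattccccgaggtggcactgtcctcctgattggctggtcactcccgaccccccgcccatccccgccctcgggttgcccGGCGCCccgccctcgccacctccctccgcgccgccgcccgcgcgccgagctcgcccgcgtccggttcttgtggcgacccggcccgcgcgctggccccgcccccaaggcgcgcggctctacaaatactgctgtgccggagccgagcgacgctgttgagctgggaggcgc
Smad6: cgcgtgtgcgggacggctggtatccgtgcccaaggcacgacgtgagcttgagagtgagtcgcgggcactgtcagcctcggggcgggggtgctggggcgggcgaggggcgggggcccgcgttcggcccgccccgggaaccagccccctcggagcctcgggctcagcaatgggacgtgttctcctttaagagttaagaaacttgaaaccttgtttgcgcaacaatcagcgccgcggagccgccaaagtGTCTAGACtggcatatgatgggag
The Id4 window holds GGCGCC once, starting 148 bases before the start, and no GTCT on either strand. The Id2 window holds GGCGCC once as well, and the Bmp4, Id3 and Smad6 windows do not. Of the 250 bases before the start, 161 in the Id2 window and all 250 in the Id3 window lie in annotated exons, so these are not purely upstream sequence. Of 32851 windows of 270 bases, GGCGCC is in 10.4%. On either strand, GTCT is found in 85.2% of windows, and in 4 of these 5. Smad6 has 2 such sites that join in the palindrome GTCTAGAC, which starts 4 bases before the start and is found in 0.183% of windows. The arrangement known from the Id1 enhancer, GGCGCC with GTCT 5 bases after it, is on either strand of 0.07% of windows and in none of these 5. A match is only a match of letters and no evidence of binding.

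Levels per length give the order of the genes. Mean levels per kilobase of exon over the 9 libraries were 33.6 CPM for Id3, 13.6 CPM for Id1, 11.7 CPM for Id4 and 11.2 CPM for Id2. Bmp7 was the most abundant of the ligands at 4.45 CPM per kilobase, against 0.206 CPM for Bmp4 and 0.195 CPM for Bmp3. The feedback genes lay between them, with 1.47 CPM for Smad7, 0.848 CPM for Bambi and 0.321 CPM for Smad6. The ranges over libraries of every pair of neighbours in this order overlapped, and only more distant ranks, such as Id3 and Bmp7, had separate ranges. Within single libraries some neighbours kept their order: Id3 was above Id1, Id2 above Bmp7 and Smad7 above Bambi in all 9 libraries. Bmp6 was the highest of the other ligands at 0.468 CPM per kilobase. Bmpr1a, a type I receptor, had 27.2 CPM per kilobase with sh900, 33.4 CPM with sh902 and 38.0 CPM with shNT. Neo1, which encodes the co-receptor neogenin, was close to it at 28.1 CPM with sh900, 28.6 CPM with sh902 and 39.0 CPM with shNT, and their order differed between the groups.

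**Figure D1:**
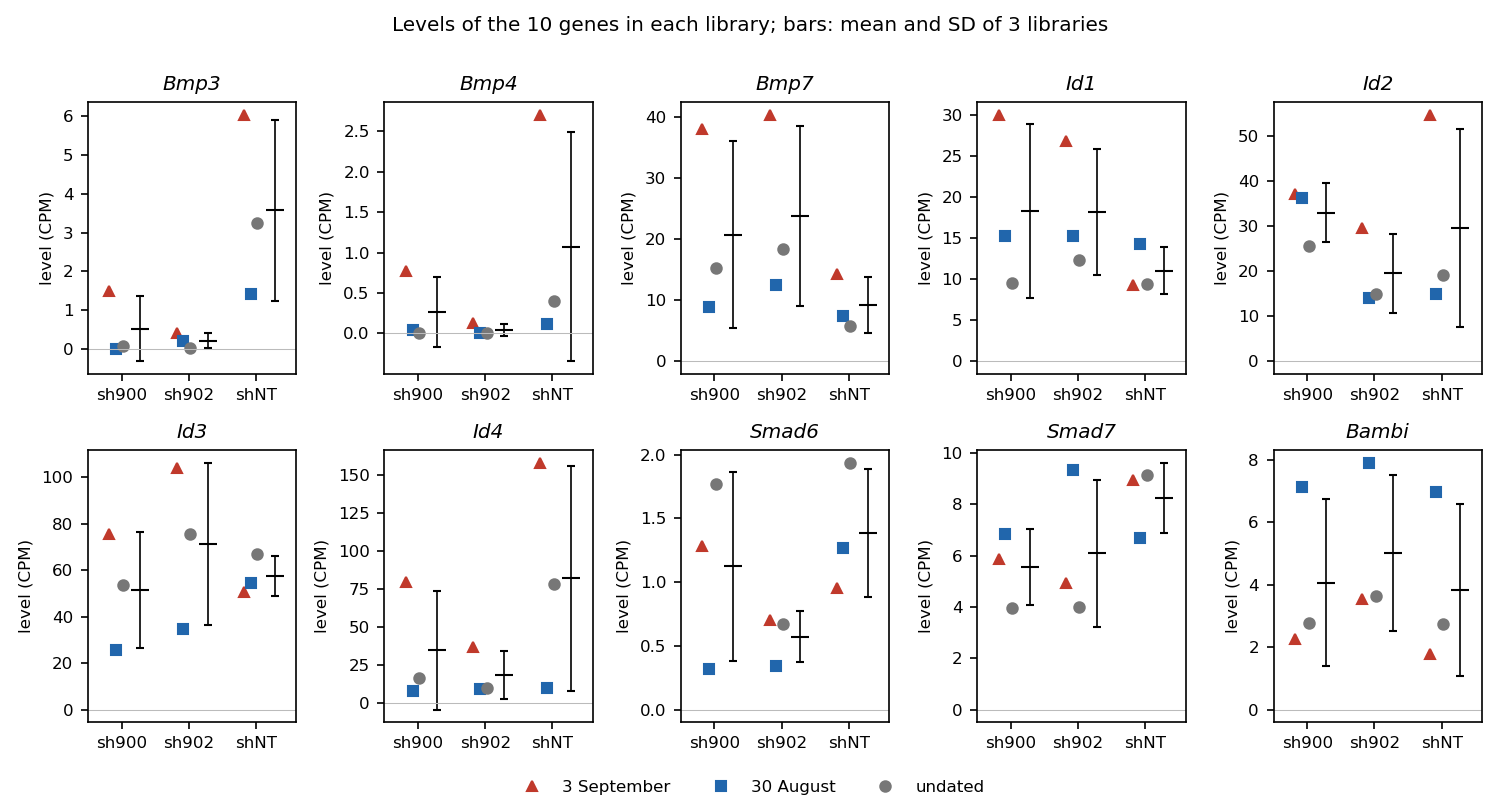
Levels of the 10 genes in CPM (vertical axes, linear, one scale per gene) in each library of sh900, sh902 and shNT (horizontal axes), with symbols for the date label and the mean and SD of 3 libraries to the right. Bmp3 is at 1.5 CPM or less in all hairpin libraries, Bmp7 is highest in the hairpin libraries of 3 September, and Id4 ranges from 10.0 to 158 CPM within shNT.

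Bmp3 (ENSMUSG00000029335, chromosome 5, 98854415 to 98884396) encodes a BMP that is known to oppose other BMPs in bone. Its libraries of 3 September, 30 August and no date held 1.5, 0 and 0.0965 CPM with sh900. With sh902 they held 0.415, 0.214 and 0.0305 CPM, against 6.03, 1.42 and 3.25 CPM with shNT. Each hairpin library was below the control of its own label, but the groups overlapped, since sh900 of 3 September lay above shNT of 30 August. The sh900 libraries held 44 counts in all and the sh902 libraries 16, against 284 in shNT. Scaled for depth, sh900 had 14.7% of the control level (exact 95% interval 10.5% to 20.3%) and sh902 5.58% (3.15% to 9.22%). These intervals cover counting error only, with the libraries of a group pooled, and the controls alone ranged from 1.42 to 6.03 CPM. They are no test of the fall, since Bmp3 was chosen on this contrast. The 3 September library held 41 of the 44 counts with sh900. Without it the fitted log2 fold change of sh900 against shNT, from a model without the date label, was -5.98, against -2.73 with all libraries.

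Bmp4 (ENSMUSG00000021835, chromosome 14, 46383520 to 46390669), which encodes a classical activating BMP, was scarcer still. In the order 3 September, 30 August and no date it had 21, 1 and 0 counts with sh900, and 3, 0 and 0 counts with sh902, against 71, 3 and 11 counts with shNT. That is at most 0.770 CPM with sh900 and 0.124 CPM with sh902, against 2.71 CPM in the highest control. The 3 September control alone held most of the control counts, and at 30 August all 3 groups were at or under 3 counts, where no fold is given. Over all labels sh900 had 24.6% of the control level (exact 95% interval 14.7% to 39.8%) and sh902 3.50% (0.707% to 10.6%). These intervals too cover counting error only and are no test, and the shares rest on the 3 September libraries. The fitted log2 fold change, in a model without the date label, was -1.98 with sh900 and -4.65 with sh902. Without shNT of 3 September it was 0.059 with sh900 and -2.62 with sh902. Without sh900 of 3 September it was -5.58 with sh900, and without sh902 of 3 September -7.88 with sh902.

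Bmp7 (ENSMUSG00000008999, chromosome 2, 172868012 to 172940321), an activating BMP of the brain, went the other way. It stood at 38.0, 8.95 and 15.2 CPM with sh900 (3 September, 30 August, no date), and at 40.3, 12.6 and 18.3 CPM with sh902. The shNT libraries had 14.3, 7.34 and 5.85 CPM. All 6 hairpin libraries were above the control of their own label, although the groups overlapped across labels. Group means were 20.7 ± 15.3 CPM with sh900, 23.7 ± 14.7 CPM with sh902 and 9.18 ± 4.54 CPM with shNT (SD, n = 3 each). Per length, Bmp7 was the main ligand measured in every group, at 5.15 CPM per kilobase with sh900, 5.91 CPM with sh902 and 2.28 CPM with shNT.

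The fitted log2 fold changes for the mean of both hairpins against shNT were -3.39 ± 1.05 for Bmp3, -3.32 ± 1.34 for Bmp4 and 1.27 ± 0.57 for Bmp7 (SE), from a model without the date label. With the date label added as replicate block they were -3.86 ± 0.70, -3.57 ± 0.64 and 1.15 ± 0.22. Values for Bmp3 and Bmp4 depend on a prior count, since some libraries held no read. A gene was called at a Benjamini-Hochberg adjusted p under 0.05 over 17602 genes in edgeR's quasi-likelihood test. Without the block none of the 10 genes and 0% of all genes were called in this contrast. Phf2, the target of the hairpins, was not called in this fit either (log2 fold change -1.28 ± 0.20, SE, adjusted p = 0.182). Its hairpin libraries were nevertheless all below the controls, so the lack of a call in this fit does not show a lack of change. An unadjusted p under 0.05 was reached by 2809 genes, 2 of them among the 10, and DESeq2 without the block called 748 genes, none of the 10. With the block Phf2 was called (-1.32 ± 0.16, SE, adjusted p = 0.00519). So were 3 of the 10, Bmp3 and Bmp4 lower and Bmp7 higher, beside 11.7% of all genes. Because the list was chosen on this contrast, nothing is read from that count. The block treats the undated libraries of the 3 groups as a set of their own, which no label supports, and with the dated libraries alone it gave 0 calls among the 10.

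The calls with the block depended on single libraries. Bmp3 was not called without sh900 undated (log2 fold change -3.59), sh902 undated (-3.54), sh902 of 3 September (-3.72) or shNT undated (-3.10). Bmp4 was not called without sh902 undated (-3.48), sh902 of 3 September (-3.98), shNT undated (-3.03) or shNT of 3 September (-4.74). Bmp7 was not called without sh900 undated (1.12), sh902 undated (1.11), sh902 of 3 September (1.15), shNT undated (0.97) or shNT of 3 September (0.99). The fold changes with the block kept their sign in all these fits. Without the block, leaving out shNT of 3 September changed the Bmp4 value to -1.28, and leaving out sh900 of 3 September changed Bmp3 to -5.01 and Bmp4 to -5.11.

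By single hairpin, with the block, Bmp3 was at -3.45 ± 0.85 with sh900 and -4.28 ± 0.94 with sh902 (log2 fold change, SE). Bmp4 was at -2.34 ± 0.70 with sh900 and -4.80 ± 0.90 with sh902, where the sh902 value rests on 3 counts. Bmp7 was at 1.02 ± 0.24 with sh900 and 1.28 ± 0.24 with sh902. With sh900 2 of the 10 genes were called, Bmp3 and Bmp7, beside 8.85% of all genes, and with sh902 all 3 ligands, beside 10.5% of all genes. These contrasts too are those the list was chosen on, and nothing is read from the counts. With 1 library left out, the sh900 calls held in 2 of 9 fits for Bmp3 (-5.33 to -2.67) and in 2 of 9 for Bmp7 (0.84 to 1.35). Bmp3 kept its sh900 call only without sh900 of 3 September or sh902 of 30 August, and Bmp7 only without sh902 of 30 August or shNT of 30 August. The sh902 calls held in 5 of 9 fits for Bmp3 (-5.10 to -3.52), 6 of 9 for Bmp4 (-6.03 to -4.32) and 5 of 9 for Bmp7 (1.11 to 1.63). All 3 sh902 calls were lost without sh902 undated, sh902 of 3 September or shNT undated, Bmp3 also without sh900 undated and Bmp7 also without shNT of 3 September. Both hairpins share the shNT libraries, so these values are not independent of each other.

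Among the Id genes, Id1 lay above the control of its label with both hairpins, Id4 lay below it, and Id2 and Id3 lay on both sides. Id1 (ENSMUSG00000042745, chromosome 2, 152736251 to 152737410), the classical BMP target, stood at 30.0, 15.2 and 9.58 CPM with sh900 and at 26.8, 15.3 and 12.4 CPM with sh902 (3 September, 30 August, no date). With shNT it stood at 9.27, 14.3 and 9.46 CPM. All 6 hairpin libraries were above the control of their own label, by a log2 ratio of 1.69 for sh900 and 1.53 for sh902 on 3 September and of 0.39 or less at the other labels. The fitted change was 0.73 ± 0.40 without the block and 0.58 ± 0.29 with it (log2, SE), and was called in neither fit.

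Id2 (ENSMUSG00000020644, chromosome 12, 25093799 to 25097140) stood at 37.2, 36.2 and 25.5 CPM with sh900 and at 29.6, 14.01 and 14.8 CPM with sh902. The controls had 54.7, 14.9 and 19.1 CPM, so the groups overlapped and 2 of 6 hairpin libraries were above their own control. Its fitted change was -0.22 ± 0.43 without the block and -0.05 ± 0.26 with it. Without the block and without shNT of 3 September the value was 0.57.

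Id3 (ENSMUSG00000007872, chromosome 4, 136143497 to 136145755), the most abundant of the 10 per length, stood at 75.6, 25.5 and 53.5 CPM with sh900. It had 104, 34.6 and 75.8 CPM with sh902, against 50.5, 54.6 and 67.0 CPM with shNT. The hairpin libraries were above their control on 3 September and below it on 30 August with both hairpins. The fitted change was 0.08 ± 0.39 without the block and -0.10 ± 0.27 with it.

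Id4 (ENSMUSG00000021379, chromosome 13, 48261228 to 48266026), which is known from astrocytes and quiescent neural stem cells, was the member of its family that lay with Bmp3 and Bmp4. It had 79.5, 8.08 and 16.3 CPM with sh900 and 36.5, 8.97 and 9.90 CPM with sh902, against 158, 10.0 and 77.9 CPM with shNT. All 6 hairpin libraries were below the control of their own label, on 30 August by a log2 ratio of only -0.30 with sh900 and -0.15 with sh902. The fitted change was -1.70 ± 0.90 without the block and -1.57 ± 0.44 with it, and was called in neither. Of all genes, 12% lay below the same-label control in 6 of 6 hairpin libraries and 12.8% above it. Of the 10 genes, Bmp3 and Id4 lay below in 6 of 6, and Bmp7, Id1 and Bambi above. Bmp4 lay below in the 4 comparisons in which either library had more than 3 counts.

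**Figure D2:**
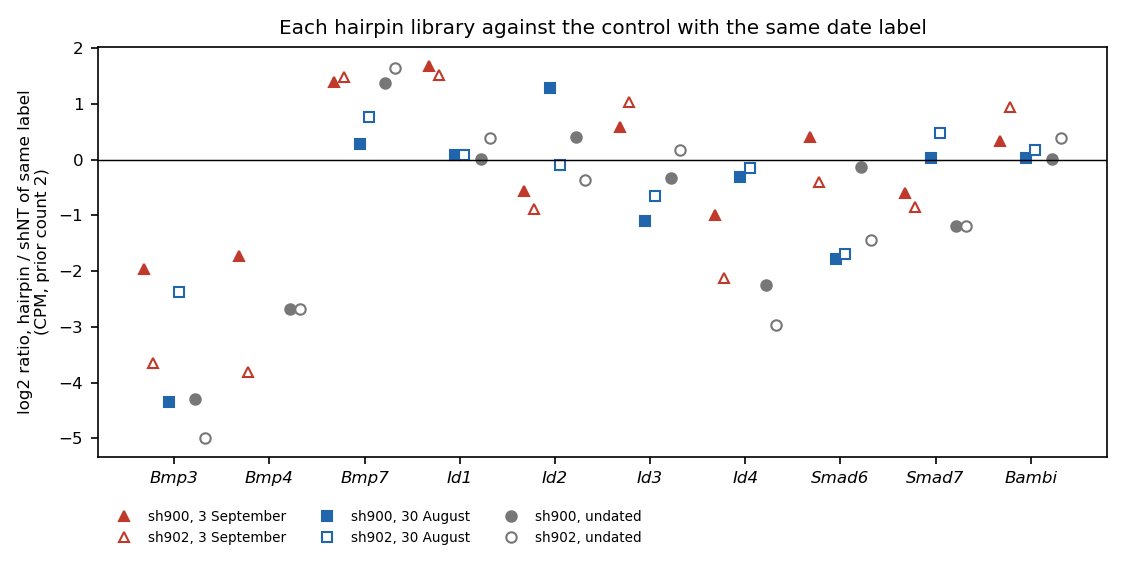
Log2 ratio of CPM (prior count 2) of each hairpin library to the shNT library with the same date label (vertical axis), for the 10 genes (horizontal axis), with filled symbols for sh900 and open symbols for sh902. Bmp3 lies below 0 in all 6 comparisons, Bmp4 in the 4 drawn (none on 30 August, where no library had more than 3 counts) and Bmp7 above 0 in all 6, while Id2, Id3, Smad6 and Smad7 lie on both sides.

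Smad6 (ENSMUSG00000036867, chromosome 9, 63953076 to 64022059) stood at 1.28, 0.317 and 1.77 CPM with sh900 and at 0.705, 0.342 and 0.670 CPM with sh902, against 0.954, 1.27 and 1.94 CPM with shNT. Of its hairpin libraries 5 were below the control of their own label, and sh900 of 3 September was above it. The fitted change was -0.78 ± 0.50 without the block and -0.90 ± 0.41 with it (log2, SE), at levels near or under 1 CPM.

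Smad7 (ENSMUSG00000025880, chromosome 18, 75367529 to 75395935) stood at 5.87, 6.85 and 3.96 CPM with sh900 and at 4.94, 9.36 and 3.99 CPM with sh902. The controls had 8.97, 6.69 and 9.13 CPM. It was below the control on 3 September and in the undated libraries with both hairpins. On 30 August it was above the control with sh902 (log2 ratio 0.48) and almost level with it with sh900 (0.034). The fitted change was -0.51 ± 0.31 without the block and -0.59 ± 0.28 with it.

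Bambi (ENSMUSG00000024232, chromosome 18, 3507923 to 3516404) stood at 2.27, 7.13 and 2.77 CPM with sh900 and at 3.53, 7.90 and 3.62 CPM with sh902, against 1.79, 6.96 and 2.74 CPM with shNT. The groups overlapped, and the 30 August library was the highest of each group. The fitted change was 0.23 ± 0.55 without the block and 0.31 ± 0.21 with it. None of the 7 Id and feedback genes was called against shNT in edgeR for either hairpin or their mean, with or without the block, over all 9 libraries. Among the alternatives, DESeq2 with the block called Id4 lower for the mean of both hairpins (-1.56), sh900 (-1.30) and sh902 (-1.82), and none of the other 6. In edgeR with the block Id4 was called for the mean and for sh902 without sh902 of 30 August (-1.78 and -2.36), and in all 3 contrasts without shNT of 30 August (-1.78 with sh900, -2.40 with sh902 and -2.09 for the mean). Smad7 was called in all 3 without shNT of 30 August (-0.996 with sh900, -0.93 with sh902 and -0.96 for the mean). Their standard errors of 0.21 to 0.44 with the block leave room for changes of that order. The median log2 fold change over the 10 genes was -0.35 with the block, beside -0.02 over all genes.

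The hairpins were compared with each other, a contrast that the choice of genes did not use directly. Bmp3 was picked as low with both hairpins, so its lack of a difference here is not independent of that choice. None of the 10 genes differed between sh902 and sh900 at an adjusted p under 0.05, beside 0% of all genes without the block and 4.22% with it. Without the block an unadjusted p under 0.05 was reached by 2532 genes and by none of the 10, and DESeq2 called 1018 genes and none of the 10. Id2 was lower with sh902 at each label, with log2 ratios to sh900 of -0.33, -1.36 and -0.78, and a fitted difference of -0.76 ± 0.51 (SE, adjusted p = 0.566), or -0.87 ± 0.30 with the block (SE, adjusted p = 0.139). Id3 was higher with sh902 at each label by 0.44 to 0.50, with a fitted difference of 0.47 ± 0.45 (SE, adjusted p = 0.725). Of all genes, 52.9% kept 1 side of sh900 at all 3 labels. Bmp4 differed by -2.66 ± 1.99 (SE, adjusted p = 0.627), or -2.47 ± 0.99 with the block (SE, adjusted p = 0.187). Both values rest on 3 counts against 22. Id1 differed by -0.01 ± 0.45 (SE, adjusted p = 0.995) and Bmp7 by 0.20 ± 0.62 (SE, adjusted p = 0.932), which does not show that the hairpins acted alike.

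The date labels also divided several of these genes. Across the 3 groups Bmp4, Bmp7 and Id4 rose in the 3 September libraries against those of 30 August, and Bambi fell. In edgeR with group and date label in the model, 4 of the 10 genes were called, beside 20.5% of all genes, of which 10.4% were higher and 10.1% lower. Bmp7 averaged 30.9 ± 14.4 CPM on 3 September and 9.62 ± 2.67 CPM on 30 August (SD, n = 3 each), a log2 difference of 1.56 ± 0.24 (SE, adjusted p = 0.00509). Bambi averaged 2.53 ± 0.89 CPM on 3 September and 7.33 ± 0.50 CPM on 30 August, a difference of -1.58 ± 0.25 (SE, adjusted p = 0.00529). The 3 September and 30 August libraries did not overlap for either gene, beside 30.7% of all genes, and both calls held whichever library was left out.

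Id4 averaged 91.4 ± 61.7 CPM on 3 September and 9.02 ± 0.96 CPM on 30 August (SD, n = 3 each), without overlap, a log2 difference of 3.00 ± 0.56 (SE, adjusted p = 0.0168). Its call was lost without sh900 of 30 August (2.99, adjusted p = 0.0698) or sh900 of 3 September (2.75, adjusted p = 0.0798). Bmp4 had 95 counts on 3 September and 4 on 30 August, a 22.9-fold difference with an exact 95% interval for counting error of 8.64 to 85.6. Its fitted difference was 4.54 ± 0.85 (SE, adjusted p = 0.00976). It was no longer called without sh900 of 30 August (4.83, adjusted p = 0.0526), sh900 of 3 September (4.14, adjusted p = 0.0683) or shNT of 30 August (3.93, adjusted p = 0.0698).

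Bmp3 did not pass this test, at 2.73 ± 0.93 (SE, adjusted p = 0.0769), nor did Id2 at 0.999 ± 0.305 (SE, adjusted p = 0.0537) or Id3 at 1.02 ± 0.32 (SE, adjusted p = 0.0602). Id1 differed by 0.45 ± 0.33 (SE, adjusted p = 0.355), Smad6 by 0.75 ± 0.50 (SE, adjusted p = 0.317) and Smad7 by -0.29 ± 0.33 (SE, adjusted p = 0.560). For Id1 the 3 September values were 30.0 CPM with sh900 and 26.8 CPM with sh902, against 9.27 CPM with shNT, and whether the label difference depends on the group was not tested. With no term for the group, only Bambi was called, and the adjusted p was 0.107 for Bmp7, 0.156 for Bmp4 and 0.0663 for Id4. With no low-count filter it was 0.0722 for Id4. Other alternatives added calls. DESeq2 called Bmp3 (adjusted p = 0.00785), Id2 (adjusted p = 0.0123) and Id3 (adjusted p = 0.0119) beside the 4 genes named above. It called 4385 of all 17602 genes in this contrast. In edgeR Id2 passed with library size alone (adjusted p = 0.0310), with no low-count filter (adjusted p = 0.00846) and without sh900 of 30 August (adjusted p = 0.0341) or sh900 of 3 September (adjusted p = 0.0352). Id3 passed without shNT of 30 August (adjusted p = 0.00502) or shNT of 3 September (adjusted p = 0.00926), and Bmp3 without sh902 of 30 August (adjusted p = 0.0495). Id1 passed in 1 of 9 edgeR fits with 1 library left out, the one without shNT of 3 September (0.92, adjusted p = 0.0299).

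**Figure D3:**
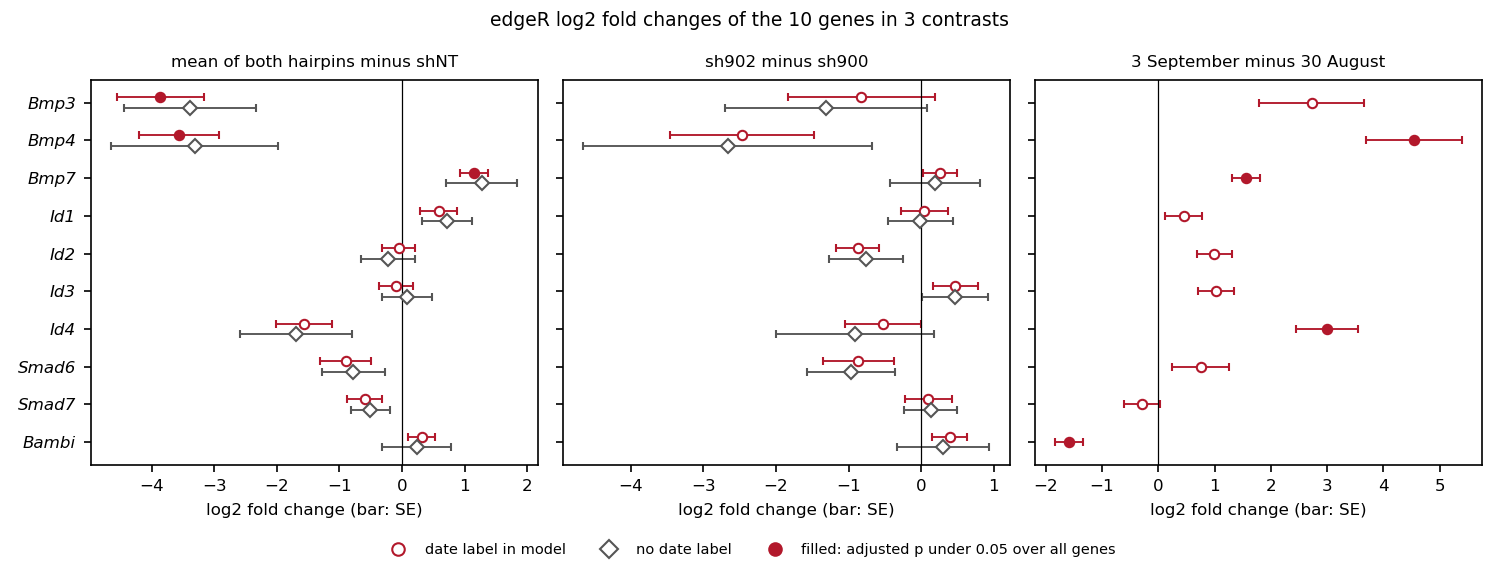
Log2 fold changes (horizontal axes) with SE bars for the 10 genes in 3 contrasts, with the date label in the model (circles) and without it (diamonds), and filled symbols for an adjusted p under 0.05. The left panel, on which the genes were chosen, has Bmp3 at -3.86 and Bmp4 at -3.57, and the right panel has Bmp4 at 4.54, Id4 at 3.00, Bmp7 at 1.56 and Bambi at -1.58.

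Markers of glia and neurons differed between the same labels, and between the groups only in the fit with the block. Between the date labels 5 of 6 astrocyte markers, 4 of 4 tested oligodendrocyte markers and 3 of 4 tested neuron markers were higher on 3 September. So were 4 of 5 fibroblast and mural markers, beside 10.4% of all genes. Of 9 neural stem and progenitor markers 3 were higher and 1 lower, and 1 of 3 ependymal markers was lower, beside 10.1% of all genes lower. The fibroblast and mural sum in the controls was 11.8 CPM on 3 September, 0.884 CPM on 30 August and 2.19 CPM without a date. In the controls the astrocyte sum was 5728 CPM on 3 September, 728 CPM on 30 August and 3092 CPM without a date, and Id4 had the same order. The oligodendrocyte sum of 6 markers was 8.79 to 182 CPM with sh900, 10.0 to 85.8 CPM with sh902 and 15.5 to 467 CPM with shNT. With the block, all 4 tested members of that list were lower in the hairpin groups. So were 2 of 6 astrocyte, 3 of 4 neuron and 1 of 5 fibroblast and mural markers and the 1 tested endothelial marker. Of 9 neural stem and progenitor markers 3 were lower and 1 higher, and 1 of 3 ependymal markers was higher. Of all genes 5.59% were lower and 6.08% higher in this fit. Mature myelin genes were scarce: Mog was at or under 0.256 CPM in every library, and Mag was at 0 in 4 of them. The sum of 4 cycling markers was 460 to 905 CPM with sh900, 619 to 1123 CPM with sh902 and 134 to 1943 CPM with shNT. Microglial and endothelial marker sums were under 10 CPM in all libraries. The part of these cell types and of proliferation in the values of Bmp3, Bmp4, Bmp7 and Id4 was not tested.

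Across the 9 libraries the levels of the 10 genes fell into loose sets. Bmp3 and Bmp4 had a Pearson correlation of log2 CPM of 0.87, Bmp3 and Id4 of 0.82, and Bmp4 and Id4 of 0.91. Id4 and Bambi had one of -0.85, and Bmp7 and Id1 one of 0.71. Bmp3 and Id1 had one of -0.10. These points share libraries, date labels and groups, so the values describe this set of libraries only. Among 12433 named genes with a mean of at least 1 CPM, those with the pattern most like Bmp3 were Asrgl1 (0.99), Nlgn3 (0.98), Slc30a10 (0.98), Shc2 (0.98) and Arl14ep (0.97). For Id1 they were Xrcc5 (0.88), Lpar2 (0.85), Tmem53 (0.84), Sdhaf4 (0.84) and Slc6a15 (0.82). For Id4, looked up after its values were seen, they were Cnp (0.997), Agt (0.996), Entpd2 (0.996), Nicn1 (0.99) and P4ha3 (0.99).

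The rest of the pathway was counted from 7 lists of 69 further genes, of which 49 passed the filter. For the hairpin mean without the block, edgeR called none of them and 0 of 17602 genes. With the block 7 were lower and 0 higher, beside 5.59% of all genes lower and 6.08% higher. Their median log2 fold change was -0.21, beside -0.02 over all genes. The receptor and co-receptor list had 3 of 10 lower, the antagonist list 2 of 12, the intracellular regulators 1 of 6 and the helix-loop-helix partners 1 of 8. None of 4 further ligands, 4 signal-carrying Smads and 5 further targets was called for the mean, and with the dated libraries alone none of the 49 was.

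Bmpr1b, a type I BMP receptor, fell in this blocked fit. It stood at 76.1, 21.9 and 36.1 CPM with sh900 and at 71.2, 30.8 and 51.9 CPM with sh902 (3 September, 30 August, no date), against 114, 43.9 and 116 CPM with shNT. Its log2 fold change was -0.94 ± 0.17 (SE, adjusted p = 0.0159), and each hairpin library was below the control of its own label. Acvr2b, a type II receptor shared with activins, fell by 0.95 ± 0.18 on the log2 scale (SE, adjusted p = 0.0164), and Rgma, a BMP co-receptor and neogenin ligand, fell by 0.87 ± 0.20 (SE, adjusted p = 0.0297). Bmpr1a differed by -0.34 ± 0.10 (SE, adjusted p = 0.0704).

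Nog encodes noggin, a secreted protein that binds BMPs and blocks them. It stood at 1.76, 0.475 and 0.257 CPM with sh900 and at 0.332, 0.256 and 0.0914 CPM with sh902, against 3.21, 0.846 and 1.13 CPM with shNT. It fell by 2.05 ± 0.38 on the log2 scale (SE, adjusted p = 0.0159). Twsg1, which binds BMPs outside the cell, fell by 0.57 ± 0.14 (SE, adjusted p = 0.0338). The lower genes of these lists thus held both receptors and antagonists.

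Skil encodes SnoN, a repressor that binds Smads. It stood at 37.9, 38.3 and 24.8 CPM with sh900 and at 47.4, 68.7 and 45.7 CPM with sh902, against 81.9, 102 and 72.2 CPM with shNT, so every hairpin library was below every control. It fell by 1.01 ± 0.12 on the log2 scale (SE, adjusted p = 0.00519), and was called with the block whichever library was left out. All hairpin libraries below all controls were seen for 3.03% of all genes. Tcf4, a helix-loop-helix partner of the kind that Id proteins bind, fell by 0.74 ± 0.11 (SE, adjusted p = 0.00849), and lost its call only without shNT undated (-0.75, adjusted p = 0.0555). The other 5 calls were each lost without shNT undated, where Bmpr1b was at -0.69 (adjusted p = 0.0976), Acvr2b at -0.79 (adjusted p = 0.106), Rgma at -0.52 (adjusted p = 0.117), Nog at -1.69 (adjusted p = 0.0965) and Twsg1 at -0.56 (adjusted p = 0.164). Bmpr1b was also lost without sh900 of 30 August, sh902 undated or sh902 of 3 September (adjusted p 0.0541 to 0.0644). Acvr2b was also lost without sh900 undated, sh902 undated or shNT of 3 September (0.0592 to 0.0671), and Nog without these or sh902 of 3 September (0.0505 to 0.0712). Rgma kept its call only without sh902 of 30 August or shNT of 30 August, with an adjusted p of 0.0564 to 0.117 in the other fits. Twsg1 kept its call only without shNT of 3 September, with 0.0629 to 0.164 in the others.

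With the block 4 of the 49 genes were higher and 4 lower with sh900, beside 5.39% of all genes higher and 3.45% lower. With sh902 1 was higher and 7 lower, beside 5.12% higher and 5.39% lower. Without the block edgeR called 0 of the 49 for either hairpin. The lower genes were Bmpr1a, Bmpr1b, Skil and Tcf4 with sh900, and with sh902 the 7 that were called for the mean. Bmpr1a was called for sh900 alone, at -0.49 ± 0.12 (SE, adjusted p = 0.0436), a call that held in 1 of 9 fits with 1 library left out, the one without sh902 of 30 August. With sh900 the Skil call held in all 9 such fits, and those of Bmpr1b and Tcf4 in 5, being lost without sh900 undated, sh900 of 30 August, sh902 undated or shNT undated. The 7 calls with sh902 held in 2 to 7 of 9 fits, and each was lost without sh902 undated or sh902 of 3 September. Acvr2b, Nog and Tcf4 were also lost without shNT undated, while Bmpr1b and Skil kept theirs only without sh900 of 3 September or shNT of 30 August, and Twsg1 only without shNT of 30 August or shNT of 3 September.

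Among the further targets 1 of 5 rose with each hairpin. Hes1, a helix-loop-helix repressor known mainly as a Notch target, had 34.6, 40.0 and 97.9 CPM with sh900 and 32.5, 24.1 and 60.5 CPM with sh902 (3 September, 30 August, no date), against 16.9, 26.9 and 27.1 CPM with shNT. It rose with sh900 by 1.13 ± 0.27 on the log2 scale (SE, adjusted p = 0.0448), and differed by 0.63 ± 0.27 with sh902 (SE, adjusted p = 0.176). Runx2, a bone transcription factor reported as a BMP target, rose with sh902 by 1.03 ± 0.27 (SE, adjusted p = 0.0466), and differed by 0.18 ± 0.27 with sh900 (SE, adjusted p = 0.707). The Hes1 call was kept only without sh902 of 30 August or shNT of 30 August (adjusted p 0.0691 to 0.205 in the other fits), and the Runx2 call only without shNT of 30 August (0.0558 to 0.221 in the others).

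The other 3 genes that rose with sh900 were Vwc2, which encodes a secreted BMP-binding protein, Smurf1, a ubiquitin ligase that acts on Smads, and Ski. Vwc2 had 7.37, 29.3 and 26.1 CPM with sh900, against 2.48, 11.4 and 3.58 CPM with shNT, a log2 fold change of 1.88 ± 0.36 (SE, adjusted p = 0.0214). Smurf1 rose by 0.70 ± 0.17 (SE, adjusted p = 0.0405) and Ski by 0.76 ± 0.15 (SE, adjusted p = 0.0223). All 3 calls were lost without sh900 undated, sh900 of 30 August or shNT undated, those of Smurf1 and Ski also without sh902 undated, that of Smurf1 also without sh902 of 3 September or shNT of 30 August, and that of Vwc2 also without shNT of 3 September.

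**Figure D4:**
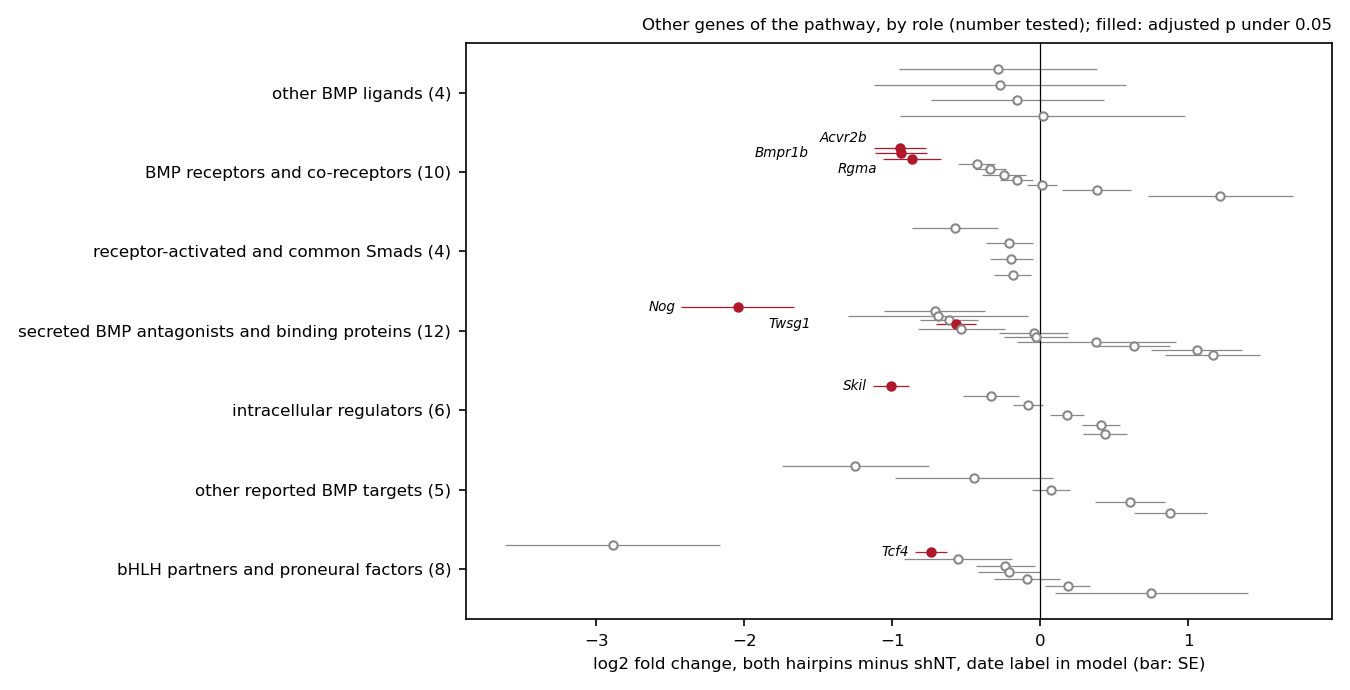
Log2 fold changes for the mean of both hairpins against shNT with the date label in the model (horizontal axis, SE bars) of the 49 further pathway genes by role (vertical axis), with filled, named points for an adjusted p under 0.05. All 7 genes called for this mean lie below 0, from Twsg1 at -0.57 to Nog at -2.05.

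With the block, Skil was higher with sh902 than with sh900 by 0.68 ± 0.15 on the log2 scale (SE, adjusted p = 0.0445). Fstl1, a secreted follistatin-like protein, was lower with sh902 at -1.70 ± 0.28 (SE, adjusted p = 0.0258) and Ski, a Smad repressor related to SnoN, was lower at -0.69 ± 0.15 (SE, adjusted p = 0.0432). Without the block none of the 3 was called. With it, Fstl1 lost its call without any 1 of the sh900 libraries, sh902 undated or sh902 of 30 August (adjusted p 0.0544 to 0.184). Ski and Skil kept theirs only without sh900 of 3 September or shNT of 30 August, with an adjusted p of 0.0527 to 0.249 in the other fits. Between the date labels 6 of the 49 genes were higher on 3 September and 9 lower, beside 10.4% and 10.1% of all genes. Bmpr1b rose by 1.47 ± 0.21 (SE, adjusted p = 0.00385) and Acvr2b by 1.21 ± 0.22 (SE, adjusted p = 0.00823). Hey1, a target shared with Notch, rose by 0.89 ± 0.15 (SE, adjusted p = 0.00610). Sostdc1, a secreted antagonist, fell by 4.62 ± 0.73 (SE, adjusted p = 0.00542) and Runx2 fell by 2.17 ± 0.27 (SE, adjusted p = 0.00237). Sostdc1 was scarce, at 0 to 3.65 CPM with shNT, 0.0734 to 1.94 CPM with sh900 and 0.332 to 3.53 CPM with sh902. The size of its fall therefore depends on the prior count. These 5 calls between the date labels held whichever library was left out.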

How the data were processed

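The authors deposited estimated counts per gene, made with FastQC, cutadapt, Trimmomatic 0.36, STAR 2.5.0a and RSEM on GRCm38, per the submitters' processing notes. The sources used here give no order of steps, annotation or settings of the counting. All values were whole numbers. RSEM shares reads between similar genes by a model, and strand use is not stated, so antisense overlap cannot be told apart. Symbols, coordinates and exon lengths came from GENCODE M21 on GRCm38 (54165 of 54232 rows). Groups came from the labels, and the lowest chi-square per degree of freedom between libraries of a group was 56.5, so none was a repeat of another. The analysis used R 4.3.3 and edgeR 4.0.16 (TMM, default filter by group, 17602 genes, robust quasi-likelihood F test, Benjamini-Hochberg adjustment over all genes), with 3 groups and no replicate block as the main fit. The date contrast had group and label in the model. SE is the log2 change over the root of the F statistic.

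Libraries of different groups that share a date were taken as paired in the fits with the block, while the main fit of the hairpin contrasts leaves this pairing out. Their deviations from group means correlated at 0.46 to 0.64 on 3 September and 0.40 to 0.63 on 30 August. The values were 0.08 to 0.40 between undated libraries and -0.66 to 0.30 between labels. The undated libraries formed a level of the block of their own, an assumption that no label supports and that every blocked call over 9 libraries makes. Values with the block are printed where they alter a call. Text names all 10 genes, up to 4 called genes per pathway list and the 5 genes most correlated with Bmp3 and with Id1; genes like Id4 and those named between hairpins or dates were picked after their values were seen. Members and lists were chosen with earlier results of these data known. Alternatives were DESeq2 1.42.0, RLE factors, library size alone, no filter, at least 1 CPM in 3 libraries, the compared or dated libraries alone, the block, no group term, and each library left out. Scripts were tested on simulated data.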

Additional observations from a re-analysis of the deposited data

Results flagged for a closer look

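Id3 differed from its control in opposite directions at the dated labels with both hairpins. Against the shNT library of its own label the log2 ratio was 0.58 with sh900 and 1.04 with sh902 on 3 September, and -1.10 with sh900 and -0.66 with sh902 on 30 August. Smad7 did the reverse with sh902, while with sh900 it was almost level with its control on 30 August. On 3 September its log2 ratio was -0.61 with sh900 and -0.85 with sh902, and in the undated libraries -1.19 with sh900 and -1.18 with sh902, while on 30 August it was 0.034 with sh900 and 0.48 with sh902. Each label has 1 library per hairpin and 1 shared control, so a single control library can set both ratios. The difference between labels was not tested for either gene.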

How the results depend on the processing

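Bmp4 and Smad6 in all groups and Bmp3 in the hairpin groups rested on few counts, and 3 libraries per group limit every estimate. The replicate block made 3 calls among the 10 genes for the mean of both hairpins, 2 for sh900 and 3 for sh902, and 7 among the other pathway genes, where the main fit made 0 of each. DESeq2 called 1 of the 10 for sh902 and 1 pathway gene. With the replicate block it called 4 for the mean, 3 for sh900, 4 for sh902 and 12 pathway genes. Over all 17602 genes DESeq2 called 748 for the mean, 790 for sh900 and 848 for sh902, and with the replicate block 2970, 2590 and 2813. Chosen after seeing the data, the block with RLE factors gave 3, 2, 3 and 7, and with library size alone 3, 0, 3 and 8. The block without the filter gave 3, 2, 2 and 11, with 1 call (Id2) between the hairpins. For the mean, sh900 and sh902, all-gene calls were 2038, 1558 and 1856 with RLE factors and 1982, 1441 and 1826 with library size alone. The block without the filter called 2716, 2209 and 2419 of 38220 genes, and 1531 between the hairpins. Without the block, RLE factors, library size alone, no filter and the 1 CPM filter called none of the 10 genes in the hairpin contrasts. The same held for the compared groups alone and for the dated libraries alone with the block. Over all genes, no filter without the block called 8 of 38220 for the mean, 58 for sh900, 35 for sh902 and 139 between the hairpins. The 1 CPM filter called 57 of 14831 between the hairpins. The dated libraries alone with the block called 1 of 17677 for the mean and 4 for sh900. Leaving out 1 library gave, over fits with and without the block, 0 to 5 calls for the mean, 0 to 3 for sh900 and 0 to 5 for sh902. It gave 0 to 12 for pathway genes and 3 to 6 for the date labels. Over all genes these fits called 0 to 3637 for the mean, 0 to 2912 for sh900, 0 to 3757 for sh902 and 1090 to 3990 for the date labels. For the date labels DESeq2 called 7 of the 10 and a fit without the group term 1, against 4 in the main fit. Over all 17602 genes they called 4385 and 448, against 3613 in the main fit.

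Between sh902 and sh900 the Id1 value of -0.01 became 0.046 with the replicate block, 0.038 with DESeq2 and the block, 0.033 with library size alone, 0.037 with the block and RLE factors, 0.11 with the block and library size, and 0.046 with the block and no filter. Leaving out 1 library gave ranges that crossed 0 for Id1 (-0.41 to 0.57), Bmp3 (-2.21 to 1.94), Bmp4 (-5.92 to 0.94), Bmp7 (-0.43 to 0.98), Id4 (-1.89 to 0.60), Smad7 (-0.29 to 0.36) and Bambi (-0.14 to 0.98). For the date labels Smad7 ranged from -0.66 to 0.099. The cause was not tested. Of the 10 genes' values, 871 alternatives against shNT moved by less than the SD and 15 by more. This SD is that of each gene's log2 CPM within groups, and it includes the spread between date labels. It is thus a wide measure, and a gained call was not counted as a move, so no stability is read from this count.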
